A study of Homo sapiens with 15 samples.

Results

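The genes described here are 10 components of the signalling step that lies between Toll-like receptor 4 (TLR4) and its transcription factors: IRAK1, IRAK2, IRAK3, IRAK4, TRAF3, TRAF6, TAB1, TAB2, MAP3K7 and TBK1. They were found on the array as all 13 probes, of 50599 without the control spots, whose accession carries one of these 10 symbols in RefSeq, out of 20503 genes named on the array. Of the 13 probes, 8 probes of 6 genes (IRAK1, TRAF6, MAP3K7, TAB1, TAB2 and TBK1) were well above background on all 15 arrays and were tested. The other 5 probes, which include the only probes found this way for IRAK2, IRAK3, IRAK4 and TRAF3, were too faint to be tested and are described by their values. A further 22425 probes received no symbol, and whether any of them reads a member is not known. IRAK1 and TAB2 each had 2 tested probes, and the brighter one stands for the gene.

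Engaged TLR4 recruits the adaptor MyD88, to which the kinase IRAK4 binds and activates IRAK1 and IRAK2, whereas IRAK3 (also called IRAK-M) lacks strong kinase activity and restrains this complex. The IRAK proteins pass the signal to TRAF6, a ubiquitin ligase whose chains are bound by TAB2 and so bring in TAK1, the kinase encoded by MAP3K7, with its activating partner TAB1. TAK1 switches on the IκB kinases and the MAP kinases JNK and p38. A second arm, through the adaptor TRIF (TICAM1), uses TRAF3 and the kinase TBK1 to activate IRF3 and the type I interferon genes. Much of the traffic through this step is controlled by phosphorylation and ubiquitination of proteins, which an array of RNA does not measure.

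SCC13 is a cell line from a human cutaneous squamous cell carcinoma, a tumour of keratinocytes. The cells had been stably transfected with either the plasmid pUNO-TLR4GFP, which encodes TLR4 fused to green fluorescent protein (SCC13-TLR4 cells), or the control plasmid pUNO (SCC13-pUNO cells). Both lines were selected with blasticidine, and the study's methods state that the cells with the highest fluorescence were sorted and used as SCC13-TLR4 cells, so the lines differ by this sort as well as by the receptor. Each line was left untreated or received 10 μg/ml ultrapure lipopolysaccharide (LPS, the bacterial ligand of TLR4), and RNA was taken after 24 h. Without LPS there were 4 SCC13-pUNO arrays and 3 SCC13-TLR4 arrays, and with LPS there were 4 of each line. Replicates were separate cultures seeded from these 2 lines, and their spread therefore says nothing of how independent transfections would vary.

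The sequences around the transcription start were read from RefSeq (GRCh38.p14) for all 10 genes, as windows of 300 bases of which the last 50 lie after the start. TAB2 has 2 such windows. The windows were searched on both strands for 4 short motifs: GGNNTTTCC (κB, the site of NF-κB), TGANTCA (AP-1), CCGGAAGT (ETS) and GGGCGG (GC box). Among 34796 windows of the same length, 6.24% held the κB letters, 7.73% the AP-1 letters, 4.13% the ETS letters and 44.9% the GC box. Of the members, the κB letters occurred in TRAF3, the AP-1 letters in IRAK1 and the ETS letters in MAP3K7 and TBK1. These 4 windows are shown because they hold such a match; capitals mark the κB, AP-1 or ETS letters, and GC boxes are left in lower case.
IRAK1: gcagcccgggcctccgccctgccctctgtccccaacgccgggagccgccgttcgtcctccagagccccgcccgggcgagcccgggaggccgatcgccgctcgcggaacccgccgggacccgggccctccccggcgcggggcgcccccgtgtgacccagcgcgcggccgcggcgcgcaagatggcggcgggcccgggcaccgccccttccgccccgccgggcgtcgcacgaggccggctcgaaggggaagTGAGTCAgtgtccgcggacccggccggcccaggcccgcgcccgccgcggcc
TRAF3: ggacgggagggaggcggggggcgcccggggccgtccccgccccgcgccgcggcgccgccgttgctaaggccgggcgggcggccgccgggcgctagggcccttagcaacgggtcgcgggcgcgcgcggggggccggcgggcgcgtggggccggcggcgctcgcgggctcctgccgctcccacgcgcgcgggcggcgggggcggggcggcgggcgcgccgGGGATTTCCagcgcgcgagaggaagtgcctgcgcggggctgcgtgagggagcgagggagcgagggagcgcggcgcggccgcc
MAP3K7: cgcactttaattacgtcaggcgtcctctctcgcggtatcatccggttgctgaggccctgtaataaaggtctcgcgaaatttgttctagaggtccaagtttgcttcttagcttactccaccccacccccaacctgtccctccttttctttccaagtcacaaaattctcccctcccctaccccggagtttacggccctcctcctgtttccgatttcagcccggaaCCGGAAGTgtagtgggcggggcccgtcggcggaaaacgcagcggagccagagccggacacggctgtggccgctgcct
TBK1: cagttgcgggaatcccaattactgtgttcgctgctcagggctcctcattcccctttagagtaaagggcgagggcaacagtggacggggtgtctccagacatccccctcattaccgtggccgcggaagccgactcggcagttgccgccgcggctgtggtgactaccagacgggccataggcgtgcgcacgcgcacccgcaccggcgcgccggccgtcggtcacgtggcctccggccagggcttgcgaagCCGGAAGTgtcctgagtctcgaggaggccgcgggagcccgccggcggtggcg
The IRAK1 window is chrX:154019853-154020152 on the minus strand, with the AP-1 letters TGAGTCA starting at base 250 counted from the 5′ end. TRAF3 lies at chr14:102777199-102777498 on the plus strand, with the κB letters GGGATTTCC starting at base 219. MAP3K7 lies at chr6:90587023-90587322 on the minus strand and TBK1 at chr12:64451870-64452169 on the plus strand, with CCGGAAGT starting at base 224 and base 249. A GC box occurred in 9 of the 10 genes, all but TBK1, and TRAF3 held 6 of them, some overlapping. The windows had a GC content between 57.7% (MAP3K7) and 86.0% (TRAF3), against a median of 58.7% over all windows. These matches describe the letters only and say nothing of binding.

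Levels are log2 intensities after subtraction of the log2 75th percentile of the same array, so a value of 0 is the 75th percentile itself. Values compare one probe between arrays and not one gene with another. The 75th percentile lay between 192 and 420 intensity units over the 15 arrays, and between 47.1% and 56.2% of the spots were well above background. The transfected gene separated the lines with 1 exception. TLR4 lay between 2.84 and 3.19 on the 7 SCC13-TLR4 arrays and between -6.40 and -3.80 on 7 of the 8 SCC13-pUNO arrays, but at 3.04 on replicate 2 of the arrays labelled SCC13-pUNO without LPS. The levels of that array are printed with the others. For each comparison that uses it, the range over the tested genes is also given without it. For single genes this is done only in part. The arrays were on 2 slides, which hold 8 and 7 arrays. On slide 1 were 3 of the 4 arrays of SCC13-pUNO cells without LPS and 1 of the 3 of SCC13-TLR4 cells without LPS, and each slide held 2 arrays of each LPS group. Slide accounted for 36.9% of the variance over 22380 probes and the 4 groups for 19.0%, so each comparison is also given with slide in the model. Each share was taken alone, so they overlap where the untreated groups are spread unequally over the slides. A larger number of groups takes a larger share of any variance. Neither share was set against that of arbitrary groups, so 19.0% does not measure a group effect. Of 10 keratinocyte markers 9 were well above background on all arrays, among them KRT5 and KRT14, and KRT6A was not tested. None of 5 fibroblast markers passed the filter, while 4 of 5 leukocyte markers did, PTPRC by 1 of its 4 probes. So did all 3 endothelial markers and 1 of 3 melanocyte markers.

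IRAK1, the kinase that carries the signal from IRAK4 to TRAF6, had levels of 4.88, 4.57, 4.53 and 4.37 in untreated SCC13-pUNO cells (replicates 1 to 4) and 4.70, 4.31 and 4.25 in untreated SCC13-TLR4 cells. With LPS its levels were 4.92, 4.54, 3.97 and 4.06 in SCC13-pUNO cells and 4.68, 4.78, 4.45 and 4.17 in SCC13-TLR4 cells. The 4 groups overlapped throughout, and the lowest 2 values were both in SCC13-pUNO cells with LPS on slide 2. The group means were 4.58 ± 0.21 (SD, n = 4), 4.42 ± 0.24 (SD, n = 3), 4.37 ± 0.44 (SD, n = 4) and 4.52 ± 0.27 (SD, n = 4) in the same order. SCC13-TLR4 minus SCC13-pUNO was -0.16 ± 0.23 (SE) without LPS and 0.15 ± 0.21 with LPS. With slide in the model the difference without LPS was 0.04 ± 0.13, so the sign depended on the slide, and without the array that stood apart in TLR4 it was -0.17 ± 0.25. The second IRAK1 probe ranged from 2.30 to 3.06 and differed by -0.15 ± 0.19 without LPS and 0.08 ± 0.17 with LPS.

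TRAF6, the ubiquitin ligase downstream of the IRAK complex, had levels of -0.48, -0.65, -0.60 and -0.81 in untreated SCC13-pUNO cells and -0.45, -0.97 and -0.70 in untreated SCC13-TLR4 cells. With LPS the levels were -0.78, -0.60, -0.84 and -0.90 in SCC13-pUNO cells and -0.71, -0.85, -1.21 and -0.90 in SCC13-TLR4 cells. The lowest value of all was in SCC13-TLR4 cells with LPS, and the groups overlapped. The means were -0.64 ± 0.14 (SD, n = 4), -0.71 ± 0.26 (SD, n = 3), -0.78 ± 0.13 (SD, n = 4) and -0.92 ± 0.21 (SD, n = 4). LPS minus untreated was -0.15 ± 0.14 (SE) in SCC13-pUNO cells and -0.21 ± 0.15 in SCC13-TLR4 cells, with 13 of 16 and 9 of 12 pairs of arrays lower with LPS. Neither passed the two-sided exact permutation test, with p = 0.20 over 70 splits and p = 0.314 over 35 splits.

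MAP3K7, which encodes TAK1, had levels of 2.14, 1.97, 2.04 and 2.04 in untreated SCC13-pUNO cells and 2.38, 2.03 and 1.80 in untreated SCC13-TLR4 cells. With LPS they were 2.21, 1.65, 1.91 and 1.88 in SCC13-pUNO cells and 2.17, 2.02, 2.05 and 1.64 in SCC13-TLR4 cells. The untreated SCC13-pUNO arrays were close together (SD 0.07) and lay inside the range of each of the other 3 groups. The line difference was 0.02 ± 0.17 (SE) without LPS and 0.06 ± 0.15 with LPS, and the first became -0.01 ± 0.19 without the array labelled SCC13-pUNO replicate 2, no LPS.

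TAB1, the activating partner of TAK1, had levels of 1.14, 1.08, 1.13 and 0.75 in untreated SCC13-pUNO cells and 1.21, 0.78 and 0.77 in untreated SCC13-TLR4 cells. With LPS the levels were 1.27, 1.02, 0.61 and 0.53 in SCC13-pUNO cells and 1.07, 0.90, 0.79 and 0.60 in SCC13-TLR4 cells. Within every group the slide 1 arrays were the higher ones. The means ranged from 0.84 ± 0.20 (SD, n = 4) in SCC13-TLR4 cells with LPS to 1.02 ± 0.19 (SD, n = 4) in untreated SCC13-pUNO cells. The line difference was -0.11 ± 0.19 (SE) without LPS and -0.01 ± 0.18 with LPS. With slide in the model the difference without LPS was 0.07 ± 0.09, so its sign depended on the slide. Without the array labelled SCC13-pUNO replicate 2, no LPS, and without slide it was -0.09 ± 0.21.

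TAB2, the ubiquitin-binding subunit of the TAK1 complex, had levels of 3.67, 3.61, 3.66 and 3.58 in untreated SCC13-pUNO cells and 3.68, 3.38 and 3.49 in untreated SCC13-TLR4 cells. With LPS they were 3.55, 3.51, 3.92 and 3.46 in SCC13-pUNO cells and 3.70, 3.44, 3.36 and 3.60 in SCC13-TLR4 cells. Its pooled SD within groups was 0.15, the smallest of the 6 genes, and 12.4% of the probes tested had a smaller one. SCC13-TLR4 minus SCC13-pUNO was -0.11 ± 0.13 (SE) without LPS and -0.08 ± 0.12 with LPS. The second TAB2 probe ranged from 0.03 to 0.57 and gave -0.10 ± 0.14 and -0.14 ± 0.13 for the same comparisons.

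TBK1, the kinase of the TRIF and TRAF3 arm, had levels of 1.55, 1.77, 1.73 and 1.37 in untreated SCC13-pUNO cells and 1.64, 1.46 and 1.59 in untreated SCC13-TLR4 cells. With LPS they were 1.75, 1.63, 1.25 and 1.38 in SCC13-pUNO cells and 1.47, 1.45, 1.10 and 1.57 in SCC13-TLR4 cells. The line difference without LPS was -0.04 with all arrays and 0.01 ± 0.16 (SE) without the array labelled SCC13-pUNO replicate 2, no LPS. The lowest array belonged to SCC13-TLR4 cells with LPS and the highest to the array labelled SCC13-pUNO replicate 2, no LPS. LPS minus untreated was -0.10 ± 0.14 (SE) in SCC13-pUNO cells, and -0.05 ± 0.15 without the array labelled SCC13-pUNO replicate 2, no LPS. In SCC13-TLR4 cells it was -0.17 ± 0.15, and 10 of 12 pairs of arrays were lower with LPS. The two-sided exact permutation test there, over 35 splits, gave p = 0.171.

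**Figure D1:**
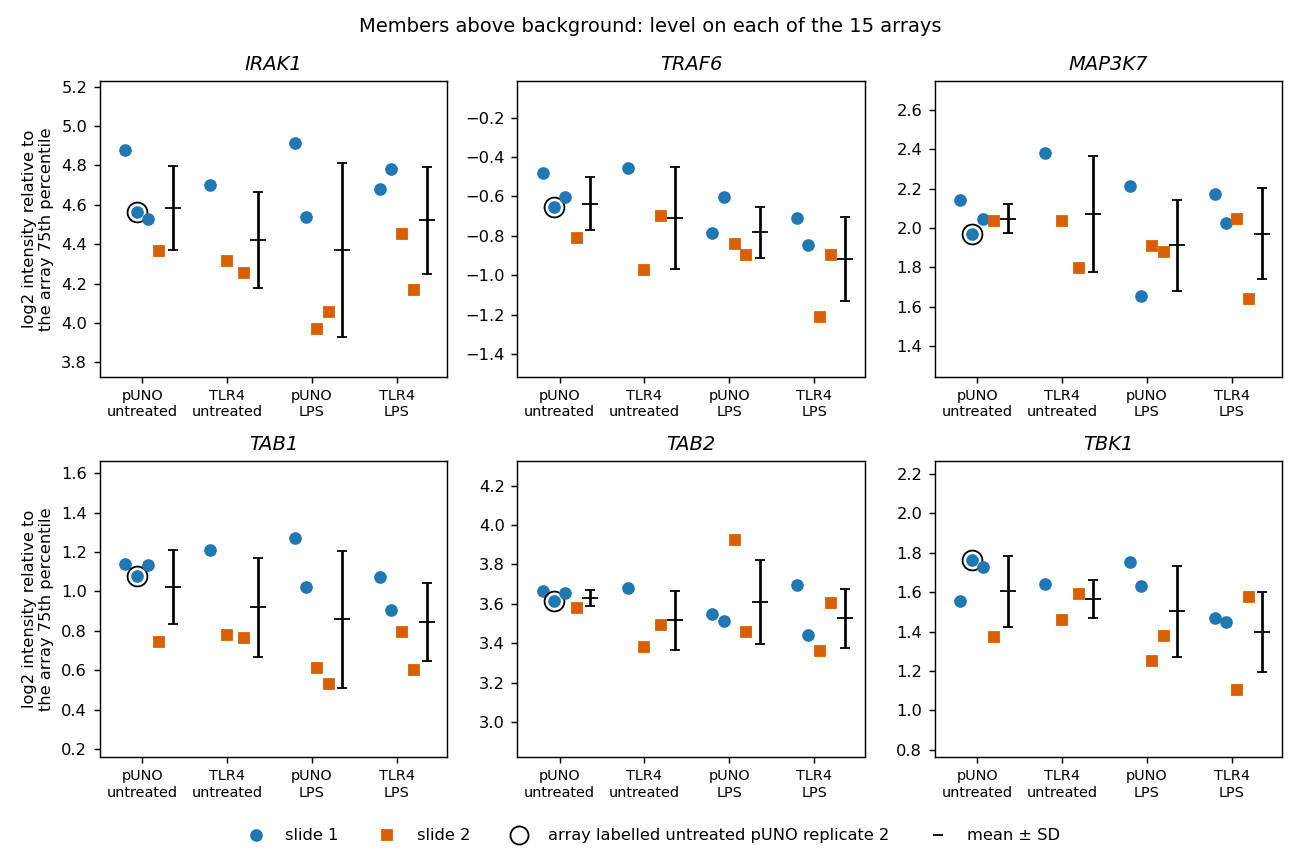
Level of the 6 members above background on each array, as log2 intensity above or below the array 75th percentile (y axis), by group (x axis). Each point is 1 array, its colour and shape give the slide, black bars give the mean ± SD of the group, and the ring marks the array labelled SCC13-pUNO replicate 2, no LPS. The groups overlap for every gene, while slide 1 lies above slide 2 for IRAK1 (4.53 to 4.92 against 3.97 to 4.45) and TAB1 (0.90 to 1.27 against 0.53 to 0.79).

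When the 4 group means of each gene were put in order, all 18 gaps between neighbours in the order were smaller than the larger SD of the 2 groups concerned, the largest being 0.62 SD. Even the highest and the lowest group of each gene overlapped for all 6 genes, with gaps between 0.11 (TAB2) and 0.28 (TRAF6).

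The remaining members were too faint to be tested. The probe for IRAK2, a kinase that works beside IRAK1, lay between -6.50 and -4.52. IRAK3, the inhibitory member of the family, lay between -6.67 and -5.44, and TRAF3 between -6.73 and -4.30. The second TAB1 probe, for another transcript of the gene, lay between -6.51 and -4.99. None of these 4 probes was well above background on any array. For comparison, the median of the 16696 probes that were never well above background was between -6.64 and -5.90 on the 15 arrays, and the faintest probe marked well above background was between -5.23 and -4.16. IRAK4, the first kinase of the cascade, was marked well above background on 2 arrays, at -4.22 on SCC13-TLR4 replicate 1 without LPS and at -3.87 on SCC13-TLR4 replicate 4 with LPS. On the other 13 arrays IRAK4 lay between -6.44 and -4.07. These probes give no fold change, since no group had them above background on all its arrays. A probe not well above background sets no level for the transcript and does not show that it is absent.

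**Figure D2:**
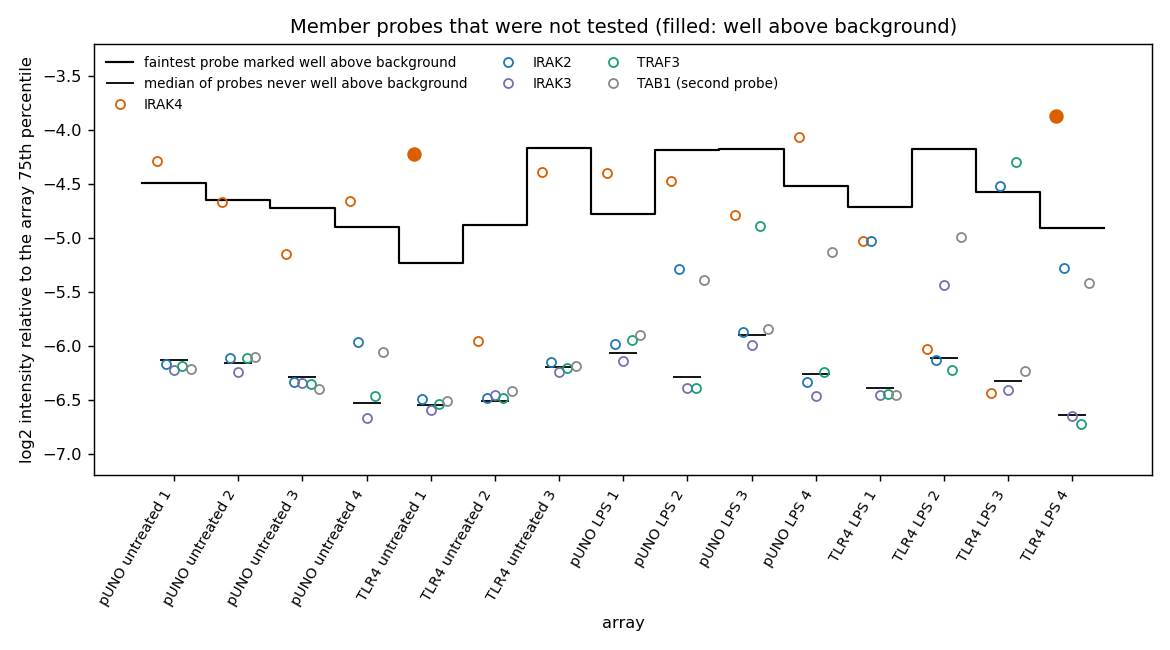
Level of the 5 member probes that were not tested, as log2 intensity above or below the array 75th percentile (y axis), on each of the 15 arrays (x axis). Filled points are well above background and open points are not, the stepped line is the faintest probe marked well above background on that array, and the short bars are the median of 16696 probes never well above background. Both filled points are IRAK4, at -4.22 and -3.87.

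The lines were compared to find how expression of TLR4 alters gene expression, here that of its own relay. The 6 genes differed little: SCC13-TLR4 minus SCC13-pUNO lay between -0.16 (IRAK1) and 0.02 (MAP3K7) without LPS and between -0.13 (TRAF6) and 0.15 (IRAK1) with LPS. The mean of both ranged from -0.10 to 0.04, with 5 of 6 genes lower in SCC13-TLR4 cells and a median of -0.07 beside -0.01 over all probes tested. This was no longer so with slide in the model, where 3 of 6 genes were lower and the median was 0.00. Each 95% interval included 0, and together they lay between -0.65 and 0.38 without LPS, between -0.43 and 0.61 with LPS and between -0.34 and 0.33 for the mean of both. The widest of these bounds was 1.57-fold without LPS, 1.52-fold with LPS and 1.27-fold for the mean of both. No member probe of 8 was called at an adjusted p of 0.05, where limma called 0 of 22685 probes without LPS (0%, 566 at an unadjusted p under 0.05), 0 with LPS (0%, 617) and 5 for the mean of both (0.022%, 982). The members' adjusted p was 0.996 or more in all of these. Two-sided exact permutation tests gave p between 0.257 (TAB2) and 0.886 (MAP3K7) over 35 splits without LPS and between 0.371 and 0.943 over 70 splits with LPS, where the smallest p such a test allows is 0.0286. For the mean of both, with labels exchanged within each treatment (2450 splits), p lay between 0.209 (TAB2) and 0.975 (IRAK1) in the exact permutation test, and within each treatment and slide (432 splits) between 0.396 and 0.764.

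Neither slide nor the omission of the array labelled SCC13-pUNO replicate 2, no LPS, brought a member past the threshold. With slide in the model the line difference without LPS was higher in SCC13-TLR4 cells for 5 of 6 genes, where it had been lower for 5 of 6 without slide, and all its intervals still included 0. Without that array and without slide, the line differences lay between -0.17 and 0.01 without LPS, with 5 of 6 genes lower, and between -0.11 and 0.03 for the mean of both. The exact permutation test without LPS then had 20 splits and p between 0.40 and 1, where it cannot go below 0.10, and that for the mean of both gave 0.221 to 0.956 over 1400 splits. The model with slide and all arrays called 0% of probes without LPS, 0% with LPS and 0.097% (22 probes, 14 higher) for the mean of both, none of them a member. Without that array and with slide in the model the shares were 0.0485% without LPS (11 probes), 0.097% with LPS (22 probes) and 0.216% for the mean of both (49 probes). Again no member was among them, and the members' differences for the mean of both lay between -0.09 and 0.07. No member had groups that did not overlap, while 3.73% of all probes tested did without LPS and 1.29% with LPS.

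LPS was compared with no treatment within each line, at 24 h. In SCC13-pUNO cells all 6 genes were lower with LPS by the probe that stands for each, from -0.22 (IRAK1) to -0.02 (TAB2). Their median was -0.14 beside -0.01 over all probes. The second TAB2 probe was higher with LPS, by 0.05 ± 0.13 (SE), and by 0.10 ± 0.09 with slide in the model. The values of the 6 genes moved with the slide, over which the SCC13-pUNO arrays are spread unequally. The model with slide gave a median of -0.07 and -0.10 for IRAK1. Within slide 1 only 3 of 6 genes were lower, IRAK1 being at 0.07, and within slide 2, with 1 untreated array, 5 of 6 were. In SCC13-TLR4 cells the differences lay between -0.21 (TRAF6) and 0.10 (IRAK1), and 4 of 6 genes were lower. Each interval included 0, and they spanned -0.67 to 0.24 in SCC13-pUNO cells and -0.53 to 0.59 in SCC13-TLR4 cells. No member was called, limma calling 0% of the probes in either line (562 and 301 at an unadjusted p under 0.05), and 1.27% and 1.79% of the probes had groups that did not overlap but no member did. With slide in the model, with or without the array labelled SCC13-pUNO replicate 2, no LPS, 0% were called as well. Without that array and without slide the values of the 6 genes in SCC13-pUNO cells were -0.22 to -0.02. The exact permutation test over 35 splits then gave p between 0.229 and 0.914.

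TRAF6 in SCC13-TLR4 cells had the lowest limma p of the members for LPS, with or without slide in the model. In the exact permutation test TBK1 in these cells had the lowest, p = 0.171. With slide in the model the TRAF6 difference was -0.25 (95% interval -0.47 to -0.03), with an unadjusted p of 0.0280 and an adjusted p of 0.9997 in limma. Within slide 1 the difference was -0.32 (1 array against 2) and within slide 2 it was -0.22 (2 against 2). The same contrast in SCC13-pUNO cells was -0.08 (interval -0.29 to 0.12), and the test of the difference between the lines gave -0.17 (interval -0.47 to 0.13). TRAF6 therefore did not pass the threshold in either line, nor did its response differ between them beyond the error.

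The response to LPS in SCC13-TLR4 cells minus that in SCC13-pUNO cells was between -0.06 (TBK1) and 0.31 (IRAK1) for the 6 genes, with a median of 0.03 beside 0.02 over all probes. The intervals were wide, from -0.51 to 0.98, and all included 0. No member and no other probe was called (0%, 299 at an unadjusted p under 0.05). The IRAK1 value of 0.31 ± 0.31 (SE) became 0.11 ± 0.18 with slide in the model, in which 0% of probes were called, and 0.32 ± 0.34 without the array labelled SCC13-pUNO replicate 2, no LPS. Without that array the 6 values lay between -0.12 and 0.32.

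**Figure D3:**
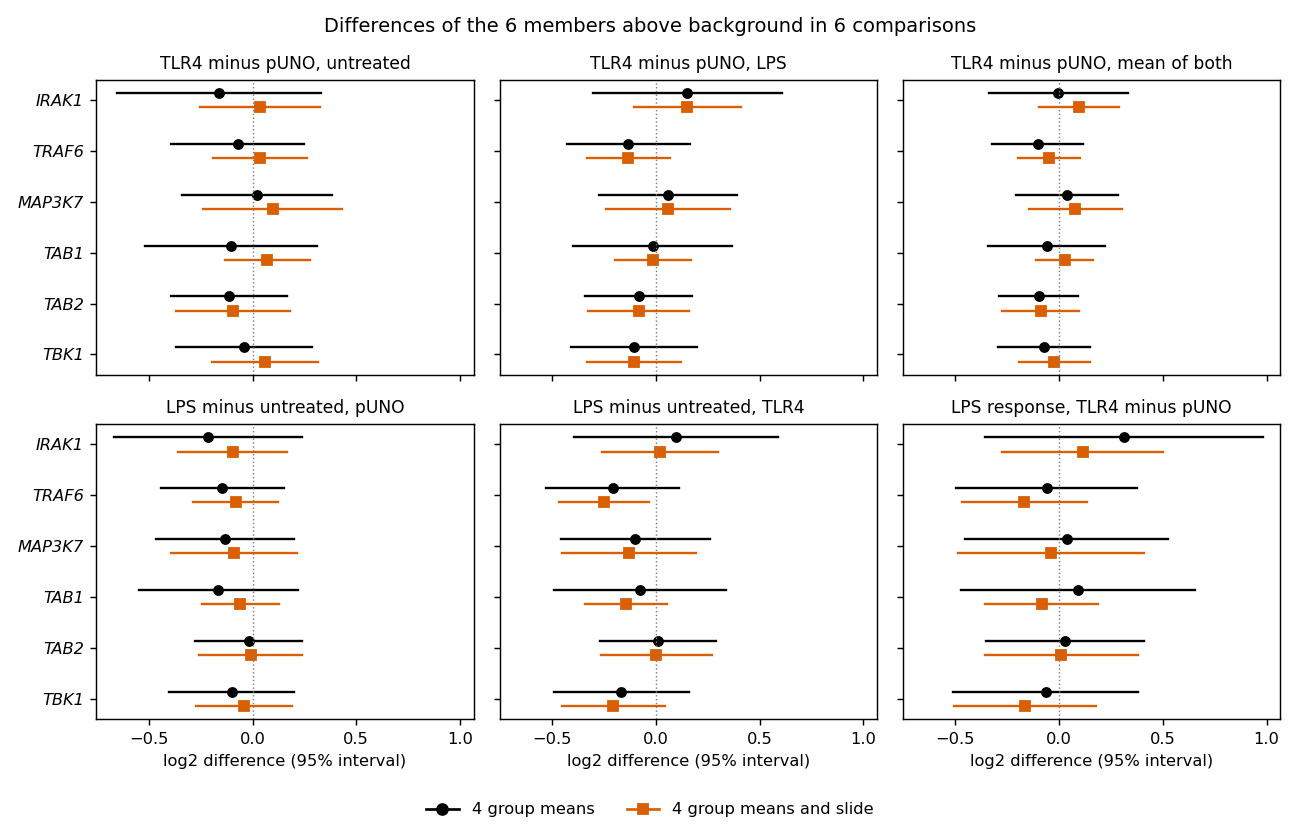
Differences of the 6 members above background in 6 comparisons, as log2 values (x axis) with their 95% intervals. Black circles are from the model of 4 group means and orange squares from the same model with slide. All black intervals include 0, and of the orange ones that of TRAF6 for LPS in SCC13-TLR4 cells (-0.47 to -0.03) does not.

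The slide, unlike the groups, was followed by most member probes. In the model with group and slide, 6 of 8 member probes were lower on slide 2 at an adjusted p of 0.05, where 51.8% of all 22685 probes were called and 34.7% were lower on slide 2. TAB1 was lower by -0.42 (95% interval -0.56 to -0.28, adjusted p = 0.000249 in limma) and IRAK1 by -0.48 (interval -0.67 to -0.28, adjusted p = 0.00107). The second IRAK1 probe gave -0.36, TRAF6 -0.26, TBK1 -0.24 and the second TAB2 probe -0.20. MAP3K7, at -0.18, and the main TAB2 probe, at -0.04, did not pass. The slides did not overlap for TAB1 and both IRAK1 probes, as for 21.6% of all probes. Leaving out the array labelled SCC13-pUNO replicate 2, no LPS, gave the same 6 calls, with -0.43 for TAB1 and -0.49 for IRAK1. The 2 TAB2 probes carry the same accession, and the difference between their slide values was not tested. Since the untreated groups are spread unequally over the slides, the line difference without LPS and the slide are partly confounded.

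**Figure D4:**
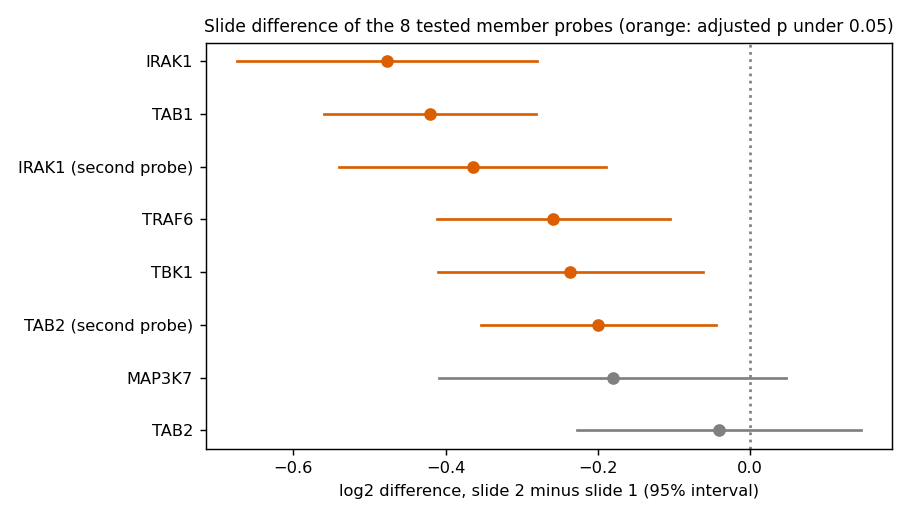
Slide 2 minus slide 1 for the 8 tested member probes, as log2 differences (x axis) with 95% intervals, from the model with 4 group means and slide. Orange marks an adjusted p under 0.05, which 6 of the 8 probes reached, from -0.48 for IRAK1 to -0.20 for the second TAB2 probe.

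The 6 genes correlated over the 15 arrays, and less so once the slide means were removed. Pearson's r between pairs of them had a median of 0.46 over 15 pairs (from -0.07 to 0.89), and 0.07 (from -0.49 to 0.58) after the mean of each slide was subtracted. The highest remaining pairs were IRAK1 with TAB1 (r = 0.58), MAP3K7 with TAB1 (r = 0.58), and IRAK1 with MAP3K7 (r = 0.52), while IRAK1 with TAB2 was the lowest (r = -0.49). The second IRAK1 probe gave 0.18 with TAB1, -0.30 with MAP3K7 and -0.31 with the main TAB2 probe. After the slide means were subtracted, the 2 IRAK1 probes correlated at only 0.24 and the 2 TAB2 probes at 0.08. A second probe of the same gene thus followed the first one weakly within a slide. These values describe 15 arrays that share groups and scaling, and no test was made. Without the array labelled SCC13-pUNO replicate 2, no LPS, the medians were 0.47 and 0.07.

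By Pearson's r after the slide means were subtracted, the named genes most like each member were picked. They came from the 15404 or 15405 probes of other named genes above background on all arrays. IRAK1 was most like RACK1 (r = 0.91), PEBP1 (0.90) and POMZP3 (0.88), and MAP3K7 was most like FKBP2 (0.91), SRA1 (0.91) and NPM1 (0.90). Among the genes most like TAB1 were PEX10 (0.89) and U2AF1 (0.88), and TAB2 was most like RNF139 (0.94), SGTB (0.94) and TMEM267 (0.92). For TBK1 the genes were TBC1D5 (0.92), PGRMC2 (0.89) and PPA1 (0.89). TRAF6 was most like TANK (0.82), POLR1B (0.80) and RBM18 (0.79), TANK being a TRAF-binding protein. These genes are the highest of that many, so the size of r describes the choice as well as the likeness. Before the slide means were subtracted, r was lower for some and higher for others. For the genes named here it ranged from 0.23 (U2AF1 with TAB1) to 0.97 (PEBP1 with IRAK1). Without the array labelled SCC13-pUNO replicate 2, no LPS, 13 of the 18 genes chosen this way were again among the 3 highest.

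The rest of the pathway was examined through lists of its other parts. Of the receptor and adaptors, 7 of 9 genes were tested, and only TLR4 itself was called. With all arrays it passed for the mean of both line comparisons (adjusted p = 0.0485 in limma), and without the array labelled SCC13-pUNO replicate 2, no LPS, also with LPS (adjusted p = 1.38e-06) and without LPS (adjusted p = 1.40e-05). With LPS the TLR4 probe was not well above background on any of the 4 SCC13-pUNO arrays, so only an approximate lower bound, 174.8-fold, is given there. This bound sets each dim array at the faintest probe marked well above background, or at its own value where that is higher. It is not strict, since an unmarked probe can be brighter than the faintest marked one. IRAK4 was so on SCC13-pUNO replicate 4 with LPS (-4.07 against -4.52). MYD88, the adaptor that recruits the IRAK kinases, had group means between 0.14 and 0.30, and TICAM1, the adaptor of the TRAF3 and TBK1 arm, between 3.98 and 4.10. Of 22 regulators of the step, such as TOLLIP, PELI1 and CYLD, 16 were tested and none was called in any of the 6 comparisons. Their median line difference was -0.04 without LPS and -0.04 with LPS. TNFAIP3, TRAF1, TRAF7, TIFA and PELI2 were on no array well above background. Of 17 downstream kinases and factors, such as CHUK, MAPK14 and IRF3, 16 were tested and none was called, with medians between -0.07 and 0.07 over the 6 comparisons.

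Of 19 target genes of the pathway, 10 were tested and none was called with all arrays, in either model. Their median LPS difference was -0.02 in SCC13-pUNO cells and 0.00 in SCC13-TLR4 cells. CCL20, CXCL3, CXCL8, ICAM1 and IFNB1 were on no array well above background. With slide in the model and without the array labelled SCC13-pUNO replicate 2, no LPS, CXCL1, a chemokine and NF-κB target, was higher in SCC13-TLR4 cells with LPS (1.06, adjusted p = 0.0243 in limma) and for the mean of both line comparisons (0.93, adjusted p = 0.00587). Of 9 tested keratinocyte markers none was called with all arrays and without slide. With slide in the model KRT14, which encodes a basal keratinocyte keratin, was the 1 marker called, higher in SCC13-TLR4 cells for the mean of both. Its brightest probe differed by 1.42 with all arrays and slide in the model (adjusted p = 0.0359 in limma) and by 1.56 without that array (adjusted p = 0.000190). Its other called probes gave 1.38 and 0.62 with all arrays, and 1.46 and 0.69 without that array. CXCL1 and KRT14 are named because of these values. The part of this keratin difference in the results for the members was not tested.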

How the data were processed

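RNA of 15 cultures was labelled with Cy3 and hybridised to Agilent SurePrint G3 Human 8x60K arrays, 1 array per culture. Per the file headers, the deposited values are linear intensities per spot, which the authors took from Feature Extraction 10.7.3.1 after background subtraction and detrending, without normalization between arrays. The deposited matrix holds the same intensity values. No normalization or test was named in the sources used here, which state the selection of genes by an adjusted p and a minimum log fold change. The array design is annotated on hg19, and no probe coordinates are given.

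From the deposited intensity, log2 values minus the 75th percentile of the array were computed, outlier-marked spots were left out, and spots of a probe were averaged. Of 50599 probes, 22685 were tested, those that in 1 group or more were marked well above background on all arrays of the group. RefSeq gave 28174 probes a symbol through their accessions. limma 3.58.1 in R 4.3.3 was fitted to all 15 arrays with 1 mean per group and Benjamini-Hochberg adjustment over the 22685 probes, with a threshold of 0.05. Exact permutation tests exchanged arrays between groups. The fit was tested on simulated data. The number of arrays limits the precision.

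Named genes are the 10 members, TLR4, list genes past the threshold, and for each member the 3 genes with the highest correlation, of which 1 is not reported here. A gene stands for its brightest tested probe. The members and the lists were chosen with earlier results of these data known. Alternatives were normexp, quantile and array median scaling, other filters, slide, a replicate block, array weights, only the groups compared, a mean over the probes of a gene, differences within a slide, and arrays left out. The data had been seen when the permutation within treatment and slide and the correlations without 1 array were chosen. Python 3.11.15, numpy 2.4.6, pandas 2.3.3 and matplotlib 3.10.9 were used.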

Additional observations from a re-analysis of the deposited data

Results flagged for a closer look

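In 1 of 24 sets of 4 arrays (a member probe in a group), a single array lay apart from the others by Dixon's test at 95%, where chance gives about 1 in 20, or 1.2 of 24. This was TAB1 in untreated SCC13-pUNO cells, where replicate 4 was at 0.746 and the other 3 arrays lay between 1.08 and 1.14. Replicate 4 is the one array of that group on slide 2, where TAB1 lay between 0.53 and 0.79 on all 7 arrays.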

How the results depend on the processing

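No member was called in any of the 6 comparisons under any alternative, the smallest adjusted p being 0.0798 for the second TAB2 probe (array weights, line difference without LPS, -0.24), a fit in which 4 of 8 member probes and 35.0% of all probes had an unadjusted p under 0.05. For the 6 genes, 91 of 852 values from refitted models turned sign, each from a value smaller than its SE. Of 48 differences within a slide 16 turned, and 1 of these from a value past its SE, IRAK1 with LPS in SCC13-pUNO cells (0.0685 within slide 1). The 22 fitted models left at least 5 of 6 genes lower with LPS in SCC13-pUNO cells, whereas 3 of 6 were lower within slide 1. TRAF6 with LPS in SCC13-TLR4 cells stayed between -0.44 and -0.08 over 21. Array median scaling moved the median of all probes by up to -0.24, in LPS against untreated SCC13-TLR4 cells, where all 6 genes were then lower. The number of all probes called moved with the model. Without LPS it was 0, but 12 with array weights, 7 without the doubted array (labelled SCC13-pUNO replicate 2, no LPS), 11 with slide as well, and 0 to 7 with single arrays left out (3 without SCC13-TLR4 replicate 3). With LPS it was 0, but 10 without the doubted array, 22 with slide as well, 5 with only the groups compared and 0 when arrays of these groups were left out. For the mean of both, 5 became 22 with slide, 23 without the doubted array and 49 with both, 2 without a filter, and 0 with array weights, quantile scaling, the all-array filter or outlier-marked spots kept. Leaving out single arrays gave 0 to 23 there, and each array changed it. Leave-one-out gave 0 to 1 calls for LPS in SCC13-pUNO cells (1 without replicate 2 with LPS), 0 to 3 in SCC13-TLR4 cells and 0 to 2 for the difference of responses, the last 2 without untreated SCC13-TLR4 replicate 3. With the replicate number as a block, with or without slide, 0 probes were called in all 6 comparisons and no member. Of 21 same-numbered pairs 15 had a correlation of deviations over 0.1 (from -0.54 to 0.62), and all 15 lay on 1 slide. With the slide means removed the median was 0.01 (from -0.41 to 0.24), beside 0.04 for pairs with other numbers. With LPS, same-numbered arrays of the lines had 0.004 to 0.17, and other pairs on 1 slide -0.29 to -0.17. Whether same-numbered samples share more than the slide was not tested.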
